A study of Mus musculus with 8 samples.

Results

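The 10 genes described here encode secreted guidance cues of the Slit and netrin families, their receptors and intracellular effectors of the receptors: the Slit receptors Robo1 and Robo2, the Slits Slit2 and Slit3, the Robo effectors Srgap1 and Srgap2, the netrin Ntn4, and the netrin receptors Neo1, Dcc and Unc5b. They were picked by name, with measured values of these same libraries known, and are 10 of the 53801 genes of the count table. Because the members were chosen with the genotype difference in view, their differences between the genotypes are given as a description. RNA was sequenced from Paneth cells of the mouse small intestine, sorted by FACS as EpCAM+ CD24+ cells, 300 per sample. The 4 control mice were β-catGOF; Mll1+/- and the 4 knockout mice were β-catGOF; Mll1-/-, so both groups carry the gain-of-function β-catenin allele (deletion of exon 3) and the controls are heterozygous for Mll1 rather than wild type. Recombination was driven by Lgr5-EGFP-IRES-CreERT2, a Cre that is made in intestinal stem cells in a mosaic pattern. Mice were induced at 4 to 6 weeks with tamoxifen on 3 consecutive days (1 mg per injection on the labels, 50 mg/kg in the methods) and analysed at day 10. The methods paragraph on the sorting names littermates without β-catGOF, and the genotypes used here are those of the labels and the design text. The comparison asks which genes depend on Mll1, a histone H3K4 methyltransferase, in Paneth cells with raised Wnt signalling.

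Slits are large secreted proteins that bind the immunoglobulin-like ectodomains of Robo receptors and were first studied as repellents of growing axons. The cytoplasmic part of Robo has no enzymatic activity and acts through adaptors such as the srGAPs, which switch off small GTPases of the cytoskeleton and bend membranes with their F-BAR domain. Netrins are laminin-related cues: the classical netrins bind Dcc and neogenin for attraction and Unc5 receptors for repulsion, whereas Ntn4 binds laminins in basement membranes and loosens their network. In the gut, Slit–Robo signalling has been tied to the intestinal stem cell compartment, and Dcc and Unc5 proteins are known as dependence receptors that can trigger apoptosis without ligand.

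The libraries held 13037832 to 14380240 counts on genes. The unit of level used here is normalized CPM, for which counts were brought to a common library size with TMM factors, and 3 counts correspond to between 0.172 and 0.352 normalized CPM. In the sorted populations, the summed level of 8 Paneth markers was between 242132 and 702302 CPM in every library, with a median of 442127 CPM over the controls and 286442 CPM over the knockouts. Knockout 3 stood apart, with counts on 19662 genes against 22623 to 26074 in the other 7 libraries. It had 2.04% mitochondrial counts against 3.26% to 8.78% in the other 7. Its Paneth marker sum was 702302 CPM (the controls reached 523491 and the other knockouts 309300). It also had the lowest TMM factor, 0.632 against 0.822 to 1.34 in the others. A lower factor raises every CPM of a library, so these sums and medians depend on the factors. Defa24 gave most of the sum, and its raw count in knockout 3, 4349970, lay within those of the controls (3204219 to 4563936). The targeted gene, Kmt2a (Mll1), had a log2 fold change of -0.06 (SE 0.24, adjusted p = 0.995 in edgeR's quasi-likelihood test), and a count over all its exons does not show whether the targeted part was deleted. Over all genes, 25 of 13439 tested genes (0.186%) passed the limit of 0.05 on the adjusted p and a size limit of 0.5 on the log2 fold change, in either direction. In 4.52% the ranges of the 2 groups did not overlap.

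Robo1 (ENSMUSG00000022883, chromosome 16 from 72663149 to 73046095 on the plus strand in mm10) and Robo2 (ENSMUSG00000052516, chromosome 16 from 73892306 to 74411825 on the minus strand) are neighbours on the same chromosome, with 0.846 Mb between the gene bodies. The 250 bases before the start are shown for Robo1, the member with the largest genotype difference, and for its neighbour Robo2. Those of Neo1 (ENSMUSG00000032340, chromosome 9 from 58874687 to 59036441 on the minus strand), the member with the highest level per exon length, are shown too. The starts are those of the annotation the reads were counted on, and a later one (GENCODE M21) has Robo1 begin further upstream. The sequences are from RefSeq (GRCm38.p6), read 5′ to 3′ on the gene's strand, with every CpG in capitals. They lie at chr16:72662899-72663148 (plus strand), chr16:74411826-74412075 (minus strand) and chr9:59036442-59036691 (minus strand).
Robo1: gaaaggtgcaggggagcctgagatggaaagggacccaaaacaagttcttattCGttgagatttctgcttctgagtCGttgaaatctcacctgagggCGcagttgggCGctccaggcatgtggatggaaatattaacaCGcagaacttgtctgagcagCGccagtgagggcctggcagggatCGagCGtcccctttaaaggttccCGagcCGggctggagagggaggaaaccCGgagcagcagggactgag
Robo2: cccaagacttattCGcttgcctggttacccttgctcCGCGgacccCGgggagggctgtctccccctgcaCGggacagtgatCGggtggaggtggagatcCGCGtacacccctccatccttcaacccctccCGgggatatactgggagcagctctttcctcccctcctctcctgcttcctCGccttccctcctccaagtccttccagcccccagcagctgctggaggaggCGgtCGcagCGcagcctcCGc
Neo1: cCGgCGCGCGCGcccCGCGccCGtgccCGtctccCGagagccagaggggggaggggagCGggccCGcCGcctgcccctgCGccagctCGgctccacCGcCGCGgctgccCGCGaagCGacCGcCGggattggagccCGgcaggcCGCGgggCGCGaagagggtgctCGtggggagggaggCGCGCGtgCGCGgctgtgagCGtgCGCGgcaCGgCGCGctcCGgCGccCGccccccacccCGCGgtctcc

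The upstream region of Robo1 has 11 CpG and 56% GC, and 64.4% of the 32851 RefSeq promoters of the same length hold fewer CpG. That of Robo2 has 14 CpG and 65.6% GC, more CpG than in 70.6% of promoters, while the 2 other Robo2 promoters, whose starts lie further upstream, have 8 and 4 CpG. That of Neo1 has 45 CpG and 83.2% GC, more than in 99.6%. The median promoter has 6 CpG and 52.4% GC. RefSeq lists 11 promoters for 9 of the members, 3 of them for Robo2, and each of the 9 has at least 1 promoter with more CpG than this median. The letters CTTTGAT, the core that TCF factors bind, were searched on both strands, are present in 3.21% of all promoters and were found in none of the 11. TATAAA, the TATA box, is present in 12.4% of all promoters and was found in that of Slit2. AGATAA, a sequence that GATA factors bind, is present in 9.99% and was found in 1 of the other promoters of Robo2.

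Robo1 had the largest genotype difference of the members. In counts, controls 1 to 4 received 6, 7, 2 and 1 reads and knockouts 1 to 4 received 89, 88, 15 and 54. This corresponds to 0.376, 0.555, 0.179 and 0.0789 normalized CPM in the controls and 5.29, 5.05, 1.76 and 3.28 in the knockouts. Every knockout lay above every control, and knockout 3 was the lowest of the knockouts. The mean level was 0.297 ± 0.212 (SD, n = 4) in the controls and 3.84 ± 1.65 (SD, n = 4) in the knockouts, 12.9 times as high, and 15.3 times as high without knockout 3. The edgeR log2 fold change was 3.64 (SE 0.59) with an adjusted p of 0.0382, which lies just inside the threshold of 0.05. With at most 7 counts in a control, Robo1 entered the test only through the knockouts. Leaving out any of the 7 libraries other than knockout 3 raised the adjusted p to between 0.0843 and 0.17, with log2 fold changes between 3.34 and 4.08, and without knockout 3 it was 0.00282. The titles of control 4 and knockout 4 carry the same number with different genotypes, so that a label of these libraries is in doubt. Without both, the log2 fold change of Robo1 was 3.41 (SE 0.65, adjusted p = 0.247). With library totals alone as the scale it was 3.97 (SE 0.72, adjusted p = 0.1).

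The libraries carry 2 runs of label numbers, with 2 controls and 2 knockouts in each. Within the first run the mean Robo1 level was 0.466 CPM in the controls and 5.17 CPM in the knockouts, a ratio of 11.1. Within the second run it was 0.129 and 2.52 CPM, a ratio of 19.5, and in both runs each knockout lay above each control. With the summed level of 4 Y-linked genes as a covariate, the log2 fold change of Robo1 was 3.50 and the adjusted p 0.164. In bulk RNA of sorted cells, more cells with a transcript and more transcript per cell cannot be told apart. No exon base of Robo1 is shared with another annotated gene. Only 2 other genes start within 1 Mb of it, Gm22797 and Gm25699, and both had 0 counts in every library.

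**Figure D1:**
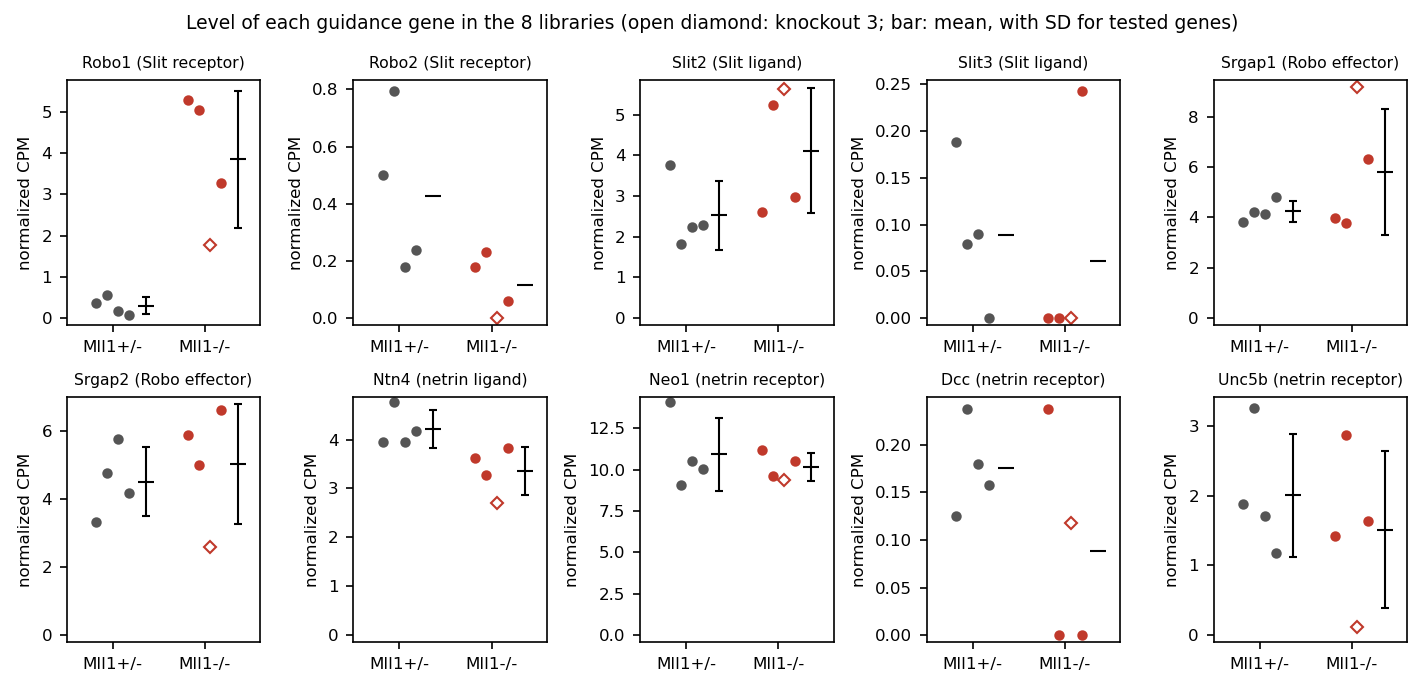
Normalized CPM (y axis, each panel with its own scale from 0) of the 10 members in the 4 Mll1+/- controls and the 4 Mll1-/- knockouts, with knockout 3 as an open diamond and a bar for the mean (with SD for the 7 tested genes). The knockouts lie above all controls for Robo1 and below all controls for Ntn4, and the groups overlap for the other 8 genes, whereas with library totals alone as the scale Ntn4 overlaps and Srgap1 does not.

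Robo2 was close to the limit of detection and, in the means, lay on the other side. It had 8, 10, 2 and 3 counts in controls 1 to 4 and 3, 4, 0 and 1 in knockouts 1 to 4, a sum of 23 against 8. Its levels were 0.501, 0.793, 0.179 and 0.237 CPM in the controls and 0.178, 0.230, 0 and 0.0607 CPM in the knockouts. Controls 1 and 2 were the highest, and the range of the knockouts overlapped that of controls 3 and 4. Robo2 did not pass the filter on low counts, and a fit without a filter gave a log2 fold change of -1.68 (SE 1.13, adjusted p = 0.625).

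Seen as a pair, nearly all Robo reads of the knockouts fell on Robo1. Of the reads on Robo1 and Robo2 together, Robo1 took 6 of 14, 7 of 17, 2 of 4 and 1 of 4 in controls 1 to 4, that is 42.9%, 41.2%, 50% and 25%. The exact 95% binomial intervals of these shares reach from 17.7% to 71.1%, 18.4% to 67.1%, 6.76% to 93.2% and 0.631% to 80.6%. The controls thus fix the share only loosely. In knockouts 1 to 4 Robo1 took 89 of 92, 88 of 92, 15 of 15 and 54 of 55 reads, or 96.7%, 95.7%, 100% and 98.2%. Their intervals run from 90.8% to 99.3%, 89.2% to 98.8%, 78.2% to 100% and 90.3% to 99.95%. The intervals cover counting error only. Those of controls 1 and 2 end below all 4 knockout intervals, that of control 3 overlaps all of them, and that of control 4 overlaps that of knockout 3. This is a description and no test of the genotypes. With at most 4 Robo2 reads in a knockout, the share follows from the Robo1 difference, which was in view when the members were chosen. PCR copies were counted as separate reads. Per exon length, dividing by all annotated exons (16528 bases for Robo2, 7563 for Robo1), the median share of Robo1 was 61.3% in the controls (42.1% to 68.6%). In the knockouts it was 98.8% (98.0% to 100%). The summed level of both receptors was 0.0652 ± 0.0446 CPM per kb of exon (SD, n = 4) in the controls. In knockouts it was 0.515 ± 0.225 CPM per kb (SD, n = 4).

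**Figure D2:**
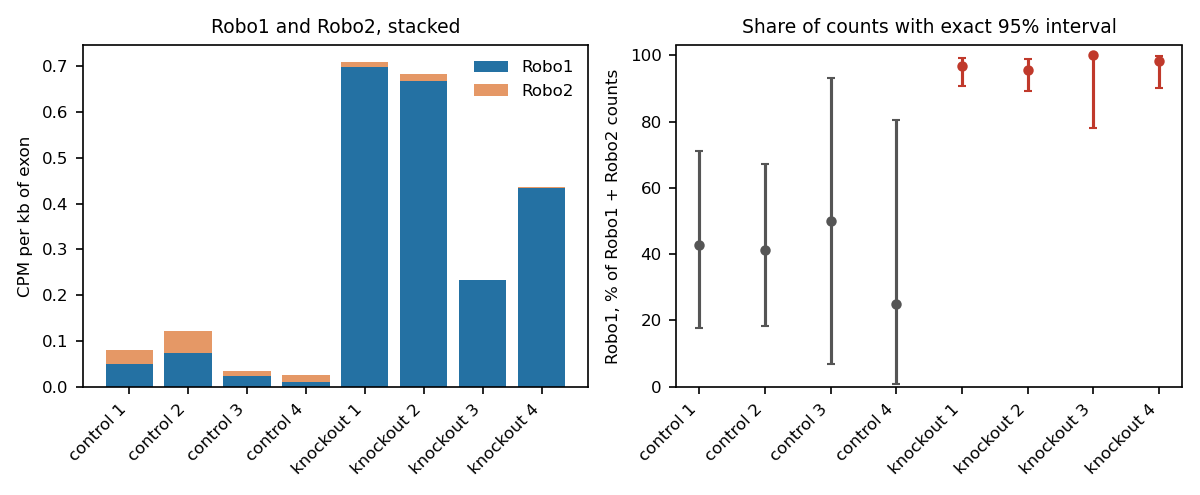
Left, Robo1 and Robo2 levels stacked (y axis, normalized CPM per kb of exon) in each of the 8 libraries; right, Robo1 as a percentage of the Robo1 and Robo2 counts with its exact 95% binomial interval (y axis, 0 to 100%). Robo1 takes 25% to 50% of the counts in the controls and 95.7% to 100% in the knockouts, and the control intervals are wide because they rest on 4 to 17 reads.

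Of the Slit ligands, Slit2 was detected in every library and Slit3 barely. Slit2 (ENSMUSG00000031558, chromosome 5 from 47983138 to 48307733) had 3.76, 1.82, 2.24 and 2.29 CPM in controls 1 to 4 and 2.61, 5.23, 5.64 and 2.97 CPM in knockouts 1 to 4. Knockouts 2 and 3 lay above all controls, knockouts 1 and 4 lay below control 1, and the groups overlapped. The means were 2.53 ± 0.847 and 4.11 ± 1.54 CPM (SD, n = 4 each), with a log2 fold change of 0.68 (SE 0.38, adjusted p = 0.827). Slit3 (ENSMUSG00000056427, chromosome 11 from 35121224 to 35708507) had 3, 1, 1 and 0 counts in the controls and 0, 0, 0 and 4 in the knockouts, and was not tested.

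Srgap1 and Srgap2, the GTPase-activating adaptors below Robo, were both expressed in every library. Srgap1 (ENSMUSG00000020121, chromosome 10 from 121780991 to 122047315) was at 3.82, 4.21, 4.13 and 4.81 CPM in the controls and 3.98, 3.79, 9.16 and 6.31 CPM in the knockouts. The highest value was that of knockout 3, and knockouts 1 and 2 lay within or below the controls. The ratio of the means was 1.37, and 1.11 without knockout 3, and the log2 fold change of 0.44 (SE 0.33, adjusted p = 0.900) became 0.14 without that library. Srgap2 (ENSMUSG00000026425, chromosome 1 from 131285251 to 131527352) was at 3.32, 4.76, 5.74 and 4.18 CPM in the controls and 5.88, 5.00, 2.58 and 6.61 CPM in the knockouts. Here knockout 3 was the lowest of all 8 libraries, and the groups overlapped (log2 fold change 0.17, SE 0.33, adjusted p = 0.982). Single libraries moved this value, to 0.37 without knockout 3, 0.30 without control 3, 0.097 without knockout 1, 0.051 without control 1 and 0.012 without knockout 4. With library totals alone as the scale it was 0.53. The 2 adaptors thus diverged most in knockout 3. Of the exon bases of Srgap1, 1.43% are shared with Gm48804 on the same strand, and the other 9 members share none.

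Ntn4 (ENSMUSG00000020019, chromosome 10 from 93640681 to 93747207), the netrin of basement membranes, was at 3.95, 4.76, 3.95 and 4.18 CPM in the controls and 3.62, 3.27, 2.70 and 3.82 CPM in the knockouts. Every knockout lay below every control, by a small margin, with means of 4.21 ± 0.383 and 3.35 ± 0.491 CPM (SD, n = 4 each). The log2 fold change of -0.32 (SE 0.28) did not pass the test (adjusted p = 0.916). The separation was also seen with DESeq2's size factors and with upper-quartile factors. With counts divided by the library total alone, it was not, the controls then lying between 3.25 and 4.54 CPM and the knockouts between 1.71 and 4.65 CPM, at a log2 fold change of -0.04. That scaling raised the median log2 fold change of all genes from 0.0085 to 0.25. Under it Srgap1 was separated instead, with 3.39 to 4.39 CPM in the controls and 5.06 to 7.67 CPM in the knockouts (log2 fold change 0.57, adjusted p = 0.819). Neo1 and Unc5b had ratios of the means of 1.09 and 1.02 under it, against a ratio below 1 with TMM factors.

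Neogenin (Neo1) binds repulsive guidance molecules and acts as a co-receptor in BMP signalling besides binding netrins. With TMM factors and all 8 libraries it had the smallest genotype difference of the tested members. This rank did not hold in every alternative, and without knockout 3 Unc5b was at -0.02 and Neo1 at -0.07. The levels of Neo1 were 14.1, 9.05, 10.5 and 10.0 CPM in the controls and 11.2, 9.59, 9.40 and 10.5 CPM in the knockouts. Apart from control 1, all libraries lay within 9.05 and 11.2 CPM, and the log2 fold change was -0.10 (SE 0.21, adjusted p = 0.985). Unc5b (ENSMUSG00000020099, chromosome 10 from 60762593 to 60831581), a receptor for the repulsive response to netrins, was at 1.88, 3.25, 1.71 and 1.18 CPM in the controls and 1.43, 2.87, 0.117 and 1.64 CPM in the knockouts. The value of knockout 3 rests on 1 count, and the log2 fold change of -0.37 (SE 0.64, adjusted p = 0.978) ranged from -0.86 without knockout 2 to -0.02 without knockout 3, and was -0.04 without control 2 and -0.56 without control 4. Dcc (ENSMUSG00000060534), the netrin receptor that gave the family its role in attraction, had 2, 3, 2 and 2 counts in the controls and 4, 0, 1 and 0 in the knockouts. All but the count of 4 lie at or below the floor of 3, so no difference in Dcc was detectable at this depth.

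Over all members, 7 of the 10 passed the filter on low counts and 1 of them, Robo1, was called, beside 0.186% of all tested genes. The genotype contrast was known when the members were chosen, so this count carries no weight of its own. The log2 fold changes of the 7 lay between -0.37 and 3.64, 4 positive and 3 negative, with a median of 0.17 against 0.0085 over all tested genes. Robo1 and Ntn4 were the 2 of 7 with groups that did not overlap with TMM factors, beside 4.52% of all tested genes, and with library totals alone they were Robo1 and Srgap1.

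**Figure D3:**
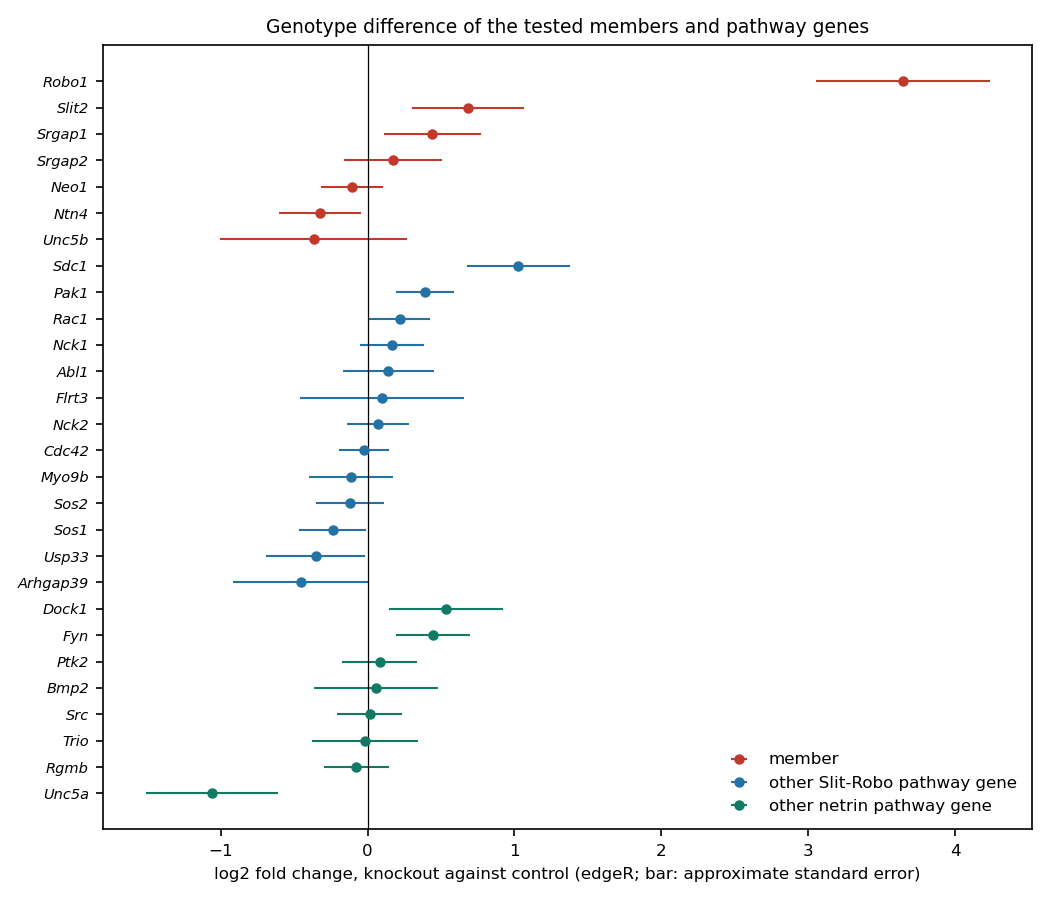
Log2 fold change of knockouts against controls (x axis) with its approximate standard error (bars) for the 7 tested members and the 21 tested genes of the Slit-Robo and netrin pathway lists. Robo1 lies at 3.64, far to the right of all others, which lie between -1.06 and 1.03.

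Levels can be compared between the members only per exon length. That length takes in all annotated exons of a gene and may exceed that of the transcript expressed. The order depends on it. Slit2, with 25.4 kb of exon, had mean levels of 2.53 and 4.11 CPM in controls and knockouts, above the 2.01 and 1.51 of Unc5b. Mean levels over the 8 libraries, in normalized CPM per kb of exon, were 1.21 for Neo1 and 1.01 for Ntn4, followed by 0.550 for Srgap1, 0.379 for Srgap2, 0.281 for Unc5b and 0.274 for Robo1. Slit2 followed with 0.131, and Robo2, Dcc and Slit3 closed the order with 0.0165, 0.0164 and 0.0124. Netrin receptors thus stood both first (Neo1) and next to last (Dcc). Each of the 9 pairs of neighbours in this order was compared with an exact sign-flip test over the 8 libraries (two-sided, smallest possible p 0.0078), and none passed after Benjamini-Hochberg adjustment. The lowest adjusted p, 0.0703, was that of Slit2 over Robo2, which held in 8 of 8 libraries, and of Ntn4 over Srgap1, which held in 7 of 8. For Unc5b over Robo1 the log2 difference was 0.44 ± 1.77 (SD over 8 libraries, adjusted exact p = 0.615). Robo1 moved most between the genotypes: it was 7th of 10 in the controls, at 0.0393 ± 0.0280 CPM per kb, and 4th in the knockouts, at 0.508 ± 0.219 CPM per kb (SD, n = 4 each).

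**Figure D4:**
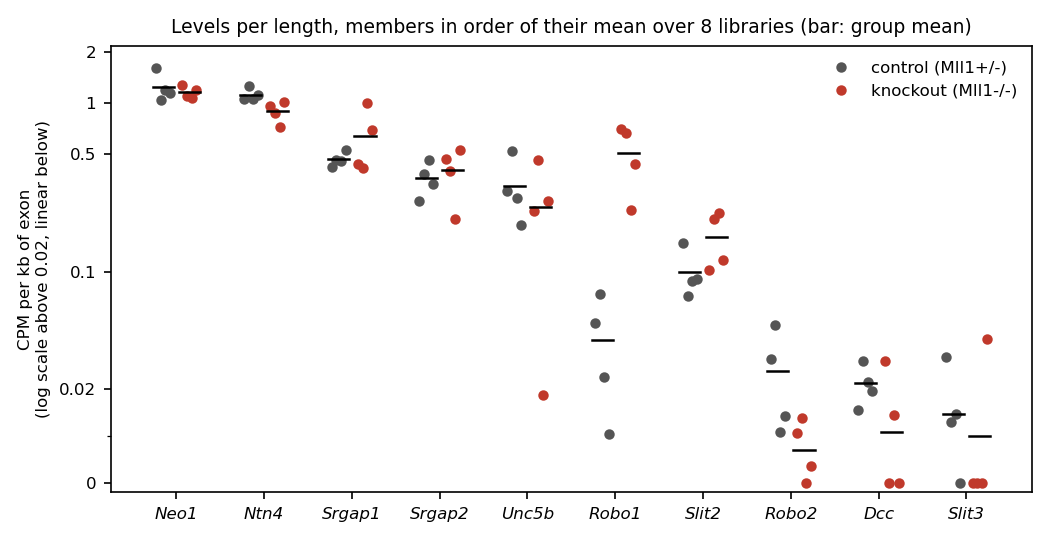
Normalized CPM per kb of exon (y axis, logarithmic above 0.02 and linear below) of the 10 members, ordered by their mean over all libraries, with 1 point per library and a bar for each group mean. The 2 groups of Robo1 are separated, between 0.0104 and 0.0734 in the controls and between 0.233 and 0.699 in the knockouts, while Neo1 and Ntn4 lie near 1 in both.

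The other genes of both pathways were read from lists of signalling partners. Of 19 other Slit-Robo genes, 13 were tested, none was called, and at an unadjusted p under 0.05 there was 1, where the share over all tested genes was 6.88%. Their median log2 fold change was 0.07, with 7 positive. The highest was Sdc1 (syndecan-1, a heparan sulfate proteoglycan of the kind that helps Slit bind Robo) at 1.03 (SE 0.35, adjusted p = 0.513). It was at 7.65, 4.92, 3.05 and 3.87 CPM in the controls and 13.7, 12.3, 7.64 and 6.19 CPM in the knockouts, with control 1 above knockouts 3 and 4. Next were Pak1, a kinase activated by Rac and Cdc42, at 0.39 and Rac1 itself at 0.22. For Rac1, control 1 (13.7 CPM) lay below the other controls (21.1 to 26.0), which were close to the knockouts (21.4 to 27.6). The lowest were Arhgap39, a mammalian relative of the fly Robo adaptor vilse, at -0.45, the deubiquitinase Usp33 at -0.35 and the Ras exchange factor Sos1 at -0.24. Among further Slit and Robo genes, Robo3 had 1, 2, 1 and 1 counts in the controls and 0 in every knockout, and Robo4 had at most 2 counts in a library. Slit1 had 7, 4, 12 and 7 counts in the controls and 3, 15, 0 and 14 in the knockouts.

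Of 22 other netrin genes in the table, 8 were tested, none was called, 1 had an unadjusted p under 0.05 (6.88% over all tested genes), and the median log2 fold change was 0.04. Unc5a, a second repulsive netrin receptor, had the lowest value, -1.06 (SE 0.45, adjusted p = 0.670). It had 27, 36, 23 and 18 counts in the controls and 21, 21, 5 and 12 in the knockouts, and after scaling every knockout lay below every control. Fyn, a Src-family kinase that acts below Dcc, lay above all controls in every knockout at a log2 fold change of 0.45 (adjusted p = 0.83). The exchange factor Dock1 was at 0.53 and focal adhesion kinase (Ptk2) at 0.08, while Rgmb, a ligand of neogenin, was at -0.08 and the exchange factor Trio at -0.02. Knockout 3 was the lowest library for Dock1 (3.76 CPM against 10.8 to 17.1 in the other knockouts) and Trio (2.58 against 6.83 to 8.38). Without it their ratios of the means went from 1.44 to 1.76 and from 0.979 to 1.17. The classical netrin Ntn1 had at most 7 counts in a library and Ntn5 at most 1, so Ntn4 was the netrin with the most counts of the 3. Unc5c had at most 7 counts and Unc5d at most 2.

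Markers of other cell types differed between the libraries too. The summed level of 8 enteroendocrine markers was between 148 and 559 CPM in the controls and between 19.1 and 139 CPM in the knockouts, which do not overlap, and 7 of the 8 had a negative log2 fold change. Among them, Neurod1 was at 36.5 CPM in the mean of the controls and 7.53 CPM in that of the knockouts (log2 fold change -2.27, SE 0.40, adjusted p = 0.0629). All 4 tuft markers had negative log2 fold changes (-1.09 to -0.68), as had 3 of 4 tested enterocyte, 3 of 5 stem cell, 2 of 3 tested immune and 2 of 5 goblet markers, and none of these was called. The sums overlapped between the groups, at 1128 to 2289 and 948 to 2238 CPM for goblet, 143 to 471 and 172 to 626 CPM for immune, 118 to 337 and 58.2 to 225 CPM for tuft, 88.7 to 273 and 26.2 to 189 CPM for enterocyte and 572 to 1266 and 210.0 to 831 CPM for stem cell markers, controls first. The immune sum is nearly all Lyz2 (129 to 624 CPM), a close copy of the Paneth lysozyme gene Lyz1, so that reads may be split between them, while Ptprc was at most 12.6 CPM and Cd68 at most 1.84 CPM. The part of these cell types in the values of the members was not tested. Robo and netrin genes are also known from stroma, vessels and nerves. The 6 stromal markers together were at most 1.40 CPM in any library, 5 endothelial markers were between 3.63 and 7.02 CPM in the controls and 4.36 and 6.70 CPM in the knockouts (of which Pecam1 gave 3.24 to 6.34), and 7 nerve and glia markers were between 4.76 and 9.33 and between 3.88 and 7.89 CPM. Sox10, a defining gene of glia, had 0 counts in every library. None of these 3 sums was separated by genotype.

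The 5 tested genes whose log2 levels ran closest to those of Robo1 over the 8 libraries were Cadm1, Flna, Ptpre, Tubb6 and Limch1. Likeness was measured as the root mean square difference of log2(CPM + 1) after centring on each gene's mean, and was 0.162, 0.274, 0.301, 0.364 and 0.370 for these genes against a median of 1.06 over 13432 genes. All 8 points share the genotype contrast and the depth of the libraries, so the likeness is a description, and so are the genotype differences of genes picked for it. Cadm1, an immunoglobulin-like cell adhesion molecule, had 2.57, 2.62, 3.05 and 1.82 CPM in the controls and 17.5, 15.1, 7.17 and 9.83 CPM in the knockouts. As with Robo1, knockouts 1 and 2 were the highest and knockout 3 the lowest knockout. The log2 fold changes were 2.30 for Cadm1, 2.52 for the actin crosslinker Flna and 1.56 for the phosphatase Ptpre. They were 3.57 for the β-tubulin Tubb6 and 2.82 for the actin-associated Limch1. Cadm1 and Tubb6 were called (adjusted p = 0.0178 and 0.0409 in edgeR's test). Flna (0.111), Ptpre (0.144) and Limch1 (0.121) were not. Tubb6 had 1, 4, 3 and 11 counts in the controls and 99, 89, 27 and 64 in the knockouts.

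**Figure D5:**
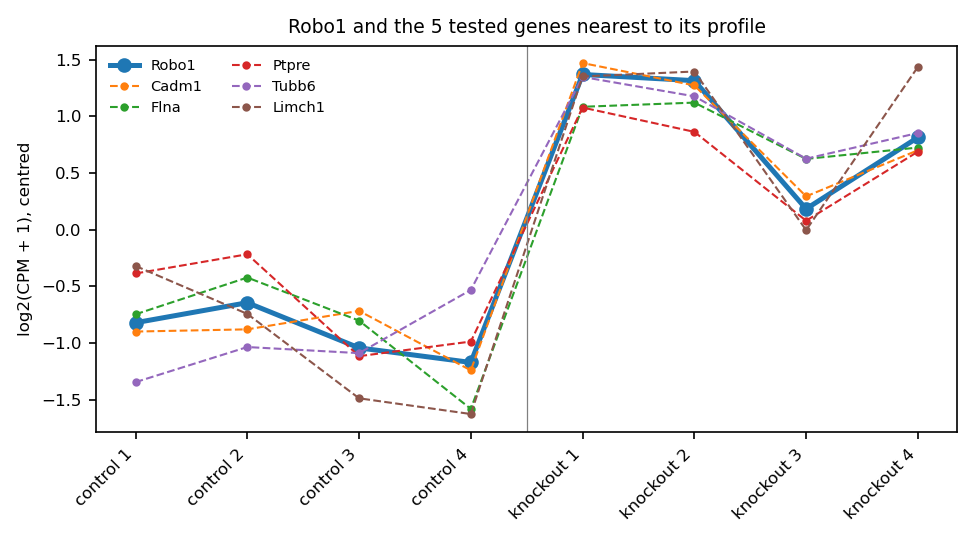
Log2(normalized CPM + 1) minus its mean over the 8 libraries (y axis) for Robo1 and the 5 tested genes nearest to it, with the 4 controls to the left and the 4 knockouts to the right of the line. All 6 genes lie below 0 in the controls, and knockout 3 is the lowest knockout of each.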

How the data were processed

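RNA of FACS-sorted Paneth cells was measured in 4 β-catGOF; Mll1+/- and 4 β-catGOF; Mll1-/- mice, grouped by the genotype on their labels. The authors amplified polyadenylated RNA by Smart-seq2, used GSNAP for alignment to mm10 and featureCounts 1.6.3 for counting unique hits on the genes of Ensembl release 92. What they deposited are raw counts. PCR copies were counted as separate reads, the strand setting is not given in the sources used here, and 92 spike-in rows were left out. Replicate numbers follow accession order and pair no samples. No 2 libraries of a group were closer than sampling noise (smallest chi-square per degree of freedom 10.8).

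From the counts, TMM factors and robust quasi-likelihood fits (edgeR 4.0.16, R 4.3.3) were computed for 13439 genes passing filterByExpr (minimum count 10, minimum total 15), with Benjamini-Hochberg adjustment over all of them. Standard errors were approximated as the log2 fold change divided by the square root of F. Levels per kb used the exon length in the count table. Levels in the order were compared as log2(CPM per kb + 0.05). The members and lists were chosen with earlier results of these data known. Named genes are the members, the 3 highest and 3 lowest genes of each pathway list, the 5 genes nearest to Robo1 and its neighbours within 1 Mb. The other Robo, Slit, Ntn and Unc5 genes of the lists are named too. Further ligands and receptors of the lists, such as Dscam and Mcam, are not described. Ntn3 was not analysed here. Alternatives were DESeq2 1.42.0 (size factors, Wald test), upper-quartile factors, library sizes without the 50 most abundant genes, other filters, limma 3.58.1 voom with library quality weights, non-robust fits, the run of label numbers or Y-linked genes as covariates, another threshold and leaving out each library. Library totals as the scale and leaving out both control 4 and knockout 4 were chosen after seeing the data.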

Additional observations from a re-analysis of the deposited data

Results flagged for a closer look

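Slit3 in knockout 4 was the 1 value set apart from its group: its 4 counts (0.243 CPM) stand against 0 counts in the other 3 knockouts, so that the gap to the nearest of the others is the whole range of the group (a ratio of 1). With 0 counts in the other 3, any count above 0 gives this ratio, so the flag does not depend on the size of the value. Of 18 groups of 4 examined among the members, chance alone flags about 1 in 20, or 0.9 in all. That rate is for continuous values and does not hold for tied counts of 0. The value lies 1 count above the floor of 3 counts, and Slit3 was not tested between the genotypes.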

How the results depend on the processing

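The log2 fold change of Robo1 stayed between 3.34 and 4.14 in every alternative, while its call depended on them. It lost the call with the Y-linked covariate (3.50, adjusted p = 0.164) and when any of 7 libraries was left out (3.34 to 4.08, adjusted p 0.0843 to 0.17), but not without knockout 3 (3.87, adjusted p = 0.00282). It also lost the call with library totals alone (3.97, adjusted p = 0.1) and without control 4 and knockout 4 (3.41, 0.247), settings chosen after seeing the data. It was not tested with at least 10 counts in every library. With DESeq2's Wald test it was 3.68 (adjusted p = 1.92e-06), with voom and library quality weights 4.14 (0.0136) and with the run of label numbers as a covariate 3.75 (0.0121). The number of members called, 1, was 0 with the stricter filter, the Y-linked covariate and both added settings, and 0 to 1 with a library left out. The 25 genes called overall became 290 without a filter, 13 with at least 10 counts in every library, 138 with DESeq2's Wald test, 95 with voom and library quality weights (2 choices changed together), 10 with the Y-linked covariate, 15 with library totals alone, 11 without control 4 and knockout 4, 38 at an adjusted p of 0.1 with no fold limit, and 10 to 152 with a library left out. The highest of these was without knockout 3.

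The 6 other tested members kept direction and side of the threshold in 115 of 119 alternative values, with a lowest adjusted p of 0.554. The 4 exceptions were Neo1 without control 1 (0.049, in a range of -0.19 to 0.049 with a library left out), Neo1 (0.13) and Unc5b (0.027) with library totals alone, and Srgap2 (-0.022) without control 4 and knockout 4. Library totals alone also moved Ntn4 from -0.32 to -0.04 and Srgap2 from 0.17 to 0.53. Voom with library quality weights moved Srgap1 from 0.44 to 0.041, Unc5b from -0.37 to -0.046 and Neo1 from -0.10 to -0.029. The difference of the median Robo1 share, 37.5 percentage points per exon length, was 55.4 points in counts not divided by length. The rank of Robo1 in the order of levels, 6, was 7 in the controls alone, 4 in the knockouts alone and 5 to 6 with a library left out. The cause of these shifts was not tested. Robo2, Slit3 and Dcc, with at most 10 counts in a library, gave values only in a fit without a filter. No paired analysis was possible because the replicate numbers follow accession order and the titles of the 2 groups share only 1 number, that of control 4 and knockout 4. The run of label numbers served as a block instead.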
